A study of Macaca mulatta with 95 samples.

Results

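YAP1, WWTR1, AMOT and SAV1 are genes of the Hippo pathway, and they were followed by name, as 4 of the 16049 genes in the table, in all 95 single cells of rhesus macaque embryos from the 16-cell stage to the hatched blastocyst. The Hippo pathway is a chain of kinases that carries signals from cell contact and cell polarity to the nucleus. When the chain is active, the LATS kinases phosphorylate the coactivators YAP1 and TAZ (the product of WWTR1) and hold them in the cytoplasm; when it is not, both enter the nucleus and switch on genes together with TEAD factors. In the mouse embryo the chain is off in polarised outer cells, where YAP1 and TEAD4 support trophectoderm genes such as CDX2 and GATA3, and on in inner cells, where AMOT at the cell contacts helps to activate LATS. SAV1 is the scaffold that brings the upstream kinases STK3 and STK4 to LATS. RNA was measured here, and neither the phosphorylation nor the place of the proteins was.

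The embryos were made by in vitro fertilisation of oocytes from hormone-stimulated females and grown in serum-supplemented medium. A membrane dye taken up from outside marked the outer cells before the embryos were taken apart with trypsin, and the cDNA of each cell was tailed, amplified and sequenced on its own. The cells came from day 3 (16-cell), day 4 (early morula), day 4.5 (late morula), day 5 (early blastocyst, with a small cavity), day 5.5 (middle blastocyst), day 6 (late blastocyst) and day 7 (hatched blastocyst), and every group is untreated and carries no engineered allele. Cell titles carry 1 of 5 letters (A, B, D, G or H) that the labels do not explain, and stage, position and letter together make 18 groups of 2 to 15 cells.

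Letter B covers the 16-cell stage, with 3 outer cells and 2 inner ones, and the middle blastocyst, with 5 outer cells and 4 inner ones. Early morula cells, 5 outer and 5 inner, all carried letter H, and late morula cells, 5 outer and 5 inner, all carried letter D. The early blastocyst gave 6 outer and 5 inner cells with letter A, and further inner cells with letters G (3) and H (2). In the middle blastocyst, letters G and H add 4 inner cells each. Late blastocyst cells (letter G, 15; letter H, 4) and hatched blastocyst cells, 9 of each letter, were all labelled inner. For 9 late blastocyst cells, 5 of letter G and all 4 of letter H, the title says late blastocyst and the source name hatched blastocyst; they were kept as late. No label names an embryo or an animal, so each group counts as 1 sample: no test was made, each SD printed here measures spread between cells, and a letter cannot be told apart from an embryo, a batch or a day of collection.

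Values are in RPKM, reads scaled by gene length and by mapped reads. Reads recovered from the steps between low values came to 1.90 to 15.0 megareads per cell (median 9.64), and 2358 to 7379 genes (median 4634) stood at 1 RPKM or more. A single read was worth, at the median, 0.0124 RPKM for YAP1, 0.0120 for WWTR1, 0.00820 for AMOT and 0.0213 for SAV1. The reads carry no molecular tags. Intervals and upper shares below take cells as independent and cover counting error only. Since no embryo is named, they leave out spread between embryos and may be too narrow for a letter or a cluster. Marker genes of cumulus cells reached 5 RPKM in 1 of 6 genes and those of sperm in 0 of 4; the summed fibroblast markers reached 5 RPKM in 23 cells (highest 417) and the blood markers in 8 (highest 190), and their part in the values below was not tested.

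Levels of the 4 genes varied widely between single cells, with low and intermediate values beside high ones. At the median a cell held 4634 of the 16049 genes at 1 RPKM or more, and whether low values reflect missed RNA was not tested. At a level of 1 RPKM or more, YAP1 was found in 63 of 95 cells, WWTR1 in 59, SAV1 in 44 and AMOT in 40, while at least 1 read was found in 90, 87, 68 and 73 cells. All 4 genes together stood at 1 RPKM or more in 23 cells, and none of them did in 18 cells. The highest values were 198.5 RPKM for YAP1, 95.5 for WWTR1, 90.9 for AMOT and 56.0 for SAV1. On this scale, which corrects for gene length, YAP1 RNA reached the highest levels of the 4.

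Title letters differ in stage, and letters A, B and D hold no late or hatched blastocyst cells. Detection of the 4 genes differed between the letters. All 18 cells without any of them at 1 RPKM were among the 35 cells of letters A, B and D (51.4%, exact 95% interval 33.99 to 68.6), and none were among the 60 cells of letters G and H, which allows a share of up to 5% (3 cells of the total, the rule used for each count of 0 here, which is lower than the upper end of an exact interval). The 23 cells with all 4 genes were all of letters G and H (38.3% of 60, interval 26.1 to 51.8), against 0 of 35 in the other letters, which allows up to 8.57%. Of the letter A and letter B blastocyst cells, 13 of 20 had none of the 4 (65%, interval 40.8 to 84.6), in outer and inner cells alike, with 8 of 11 outer and 5 of 9 inner cells. Early and middle blastocyst inner cells of letters G and H, from the same stages, had none in 0 of 13. Within letter B detection also differed by stage. At the 16-cell stage 0 of 3 outer and 0 of 2 inner cells had none of the 4. In the middle blastocyst 4 of 5 outer and 2 of 4 inner cells had none. Recovered megareads had medians of 8.14 (letter A), 10.7 (B), 4.84 (D), 9.64 (G) and 10.0 (H), and detected genes, those reaching 1 RPKM, had medians of 3279, 3893, 3719.5, 4711 and 6034. By the median, letter B cells had the deepest libraries of the 5 letters, and the part of the letter in the members' levels was not tested.

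**Figure D1:**
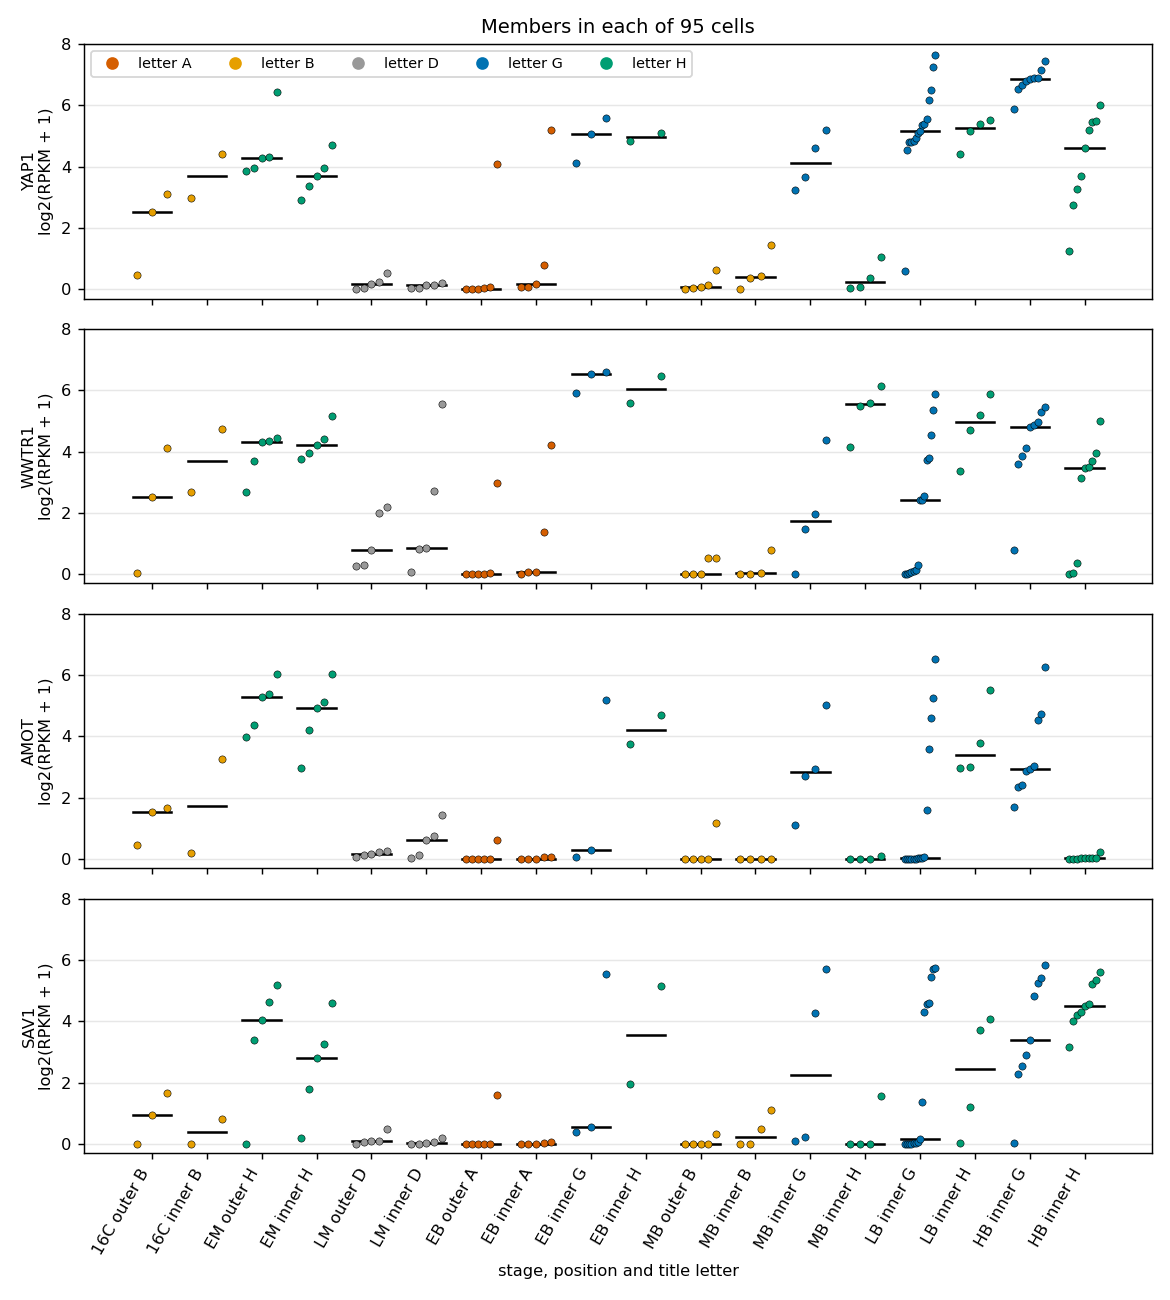
Level of YAP1, WWTR1, AMOT and SAV1 in each of 95 cells, as log2(RPKM + 1), by stage (16C, 16-cell; EM and LM, early and late morula; EB, MB, LB and HB, early, middle, late and hatched blastocyst), position and title letter, with a bar at the median of each group. Late morula cells (D), apart from WWTR1 in some of them, and most letter A or B blastocyst cells lie at or near 0 for all 4 genes, while cells of letters G and H of the same or later stages spread up to 198.5 RPKM.

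YAP1, the coactivator at the end of the kinase chain, had its highest mean in hatched blastocyst cells of letter G, at 114 RPKM (SD over cells 32.1, n = 9). Late blastocyst cells followed at 55.8 (53.2, n = 15) in letter G and 35.1 (10.6, n = 4) in letter H, then early blastocyst inner cells at 31.8 (15.2, n = 3) in letter G and 30.5 (3.87, n = 2) in letter H. Outer early morula cells averaged 30.3 (31.3, n = 5), hatched blastocyst cells of letter H 26.3 (21.3, n = 9) and middle blastocyst inner cells of letter G 19.7 (12.4, n = 4). Both late morula groups, both letter B middle blastocyst groups and the 4 middle blastocyst cells of letter H averaged under 1 RPKM. In the order of the 18 means, the cells of every pair of neighbouring groups overlapped, for YAP1 as for the other 3 genes.

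WWTR1, which encodes the YAP1 paralog TAZ, had its highest group mean at an earlier stage than YAP1. Both groups are of letter G, but stage and lineage cannot be told apart between them, so no order in time is claimed. The highest WWTR1 means were those of early blastocyst inner cells, 81.9 RPKM (SD 20.3, n = 3) in letter G and 67.2 (28.2, n = 2) in letter H. Middle blastocyst cells of letter H, where YAP1 was near 0, held 44.2 (21.4, n = 4), and late blastocyst cells of letter H 32.0 (20.4, n = 4). Hatched blastocyst cells averaged 23.1 (13.6, n = 9) in letter G and 9.54 (9.76, n = 9) in letter H. The lowest means were in middle blastocyst cells of letter B, at 0.200 (0.363) in inner and 0.183 (0.237) in outer cells.

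AMOT, an angiomotin that binds YAP1 and F-actin at cell contacts, was highest in early morula cells, at 35.5 RPKM (SD 19.6, n = 5) in outer and 30.5 (21.9, n = 5) in inner cells. Blastocyst groups with a mean above 10 RPKM were the early blastocyst cells of letters H (18.7, SD 8.67) and G (11.8, 20.2), the middle blastocyst cells of letter G (11.3, 13.9), the late blastocyst cells of letters H (17.8, 18.0) and G (11.0, 24.6) and the hatched blastocyst cells of letter G (17.1, 23.4). Hatched blastocyst cells of letter H averaged 0.0348 (0.0556) and middle blastocyst cells of letter H 0.0183 (0.0366).

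SAV1, the scaffold of the upstream kinases, had the lowest read support of the 4 and at most 2703 reads in a cell. Its highest mean was in hatched blastocyst cells of letter H, at 25.4 RPKM (SD 13.2, n = 9), where AMOT was near 0. Hatched cells of letter G followed at 20.8 (20.4, n = 9), then early blastocyst inner cells of letter H at 18.6 (22.2, n = 2) and middle blastocyst inner cells of letter G at 17.5 (24.3, n = 4). Within a group SAV1 was often present in some cells and absent in others. The 3 early blastocyst cells of letter G stood at 0.324, 0.476 and 46.1 RPKM, and the 4 middle blastocyst cells of letter G at 0.0611, 0.160, 18.4 and 51.5.

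The first comparison asks whether outer and inner cells of an embryo differ in the RNA of these genes. It was made only within a stage and a letter, as the log2 ratio of mean RPKM + 1, a gene being measured where 1 or both means reached 5 RPKM, and called where the means differed 2-fold. Outer and inner cells overlapped for 4 of 4 genes at each of the 5 stages. Of measured genes, 29.4% did not overlap at the 16-cell stage, 2.55% in the early and 3.37% in the late morula. In the early and middle blastocyst 1.25% and 4.16% did not. Members measured were YAP1 and WWTR1 at the 16-cell stage, all 4 in the early morula, WWTR1 in the late morula and YAP1 in the early blastocyst. No member was measured in the middle blastocyst. Most measured genes overlapped at every stage, so nothing particular to the 4 genes can be read from their overlap. Where a mean differed by 2-fold, a single cell carried much of the difference, as follows.

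At the 16-cell stage (letter B) both measured members had lower means in outer cells. The 3 outer cells held 0.380, 4.79 and 7.56 RPKM of YAP1 and the 2 inner cells 6.80 and 20.3. The ratio was -1.47 log2 units, and -0.57 without inner cell 1. WWTR1 stood at 0.0289, 4.79 and 16.4 in outer and 5.42 and 25.4 in inner cells, with a ratio of -1.02 that turned to 0.33 without the same inner cell. A 2-fold difference in either direction was found for 44.6% of measured genes at this stage, and a 2-fold lower outer mean for 20.6%. AMOT was at most 2.14 in outer cells and at 0.156 and 8.62 in inner cells, and SAV1 at most 2.20 in any of the 5 cells.

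In the early morula (letter H) all 4 genes were measured and 1, YAP1, had a mean past 2-fold, beside 25.3% of measured genes in either direction. Outer cells held 13.5, 14.6, 18.5, 19.0 and 86.1 RPKM of YAP1 and inner cells 6.54, 9.37, 11.9, 14.7 and 25.01. The ratio of 1.11 log2 units became 0.26 without outer cell 2, the one at 86.1, and 0.70 with median-of-ratios factors. SAV1 stood at 0, 9.38, 15.4, 24.0 and 35.1 in outer and 0.150, 2.46, 6.02, 8.67 and 23.2 in inner cells, with a ratio of 0.97 that ranged from 0.54 to 1.74 with 1 cell left out at a time. The same outer cell that was highest for YAP1 was highest for SAV1 and lowest for WWTR1.

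WWTR1 in the early morula was more even, at 5.46, 11.9, 18.8, 19.2 and 20.5 RPKM in outer and 12.5, 14.5, 17.5, 20.1 and 34.6 in inner cells, with a ratio of -0.36. AMOT ranged from 14.8 to 64.2 in outer and from 6.78 to 64.9 in inner cells, with a ratio of 0.21. Outer cell 5 and inner cell 5, the highest for AMOT at 64.2 and 64.9, were the lowest of their groups for SAV1.

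In the late morula (letter D) YAP1, AMOT and SAV1 were near absent in both positions, and WWTR1 alone was measured, at 1 RPKM or more in 4 of 10 cells. YAP1 was at most 0.448 RPKM in the 10 cells, SAV1 at most 0.414 and AMOT at most 1.69. WWTR1 stood at 0.208, 0.218, 0.714, 3.00 and 3.59 in outer and 0.0532, 0.758, 0.810, 5.52 and 45.4 in inner cells. Its ratio of -2.18 log2 units, past the 2-fold line like 58.1% of measured genes, became -0.13 without inner cell 7, the one at 45.4. The late morula libraries were the shallowest by letter, and a stage cannot be told apart from a letter here.

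In the early blastocyst (letter A) the cavity has formed, and the outer cells are the nascent trophectoderm. YAP1 was found at 1 RPKM or more in 1 of 6 outer and 1 of 5 inner cells. Outer cells held 0 (3 cells), 0.0230, 0.0653 and 15.9 RPKM, and inner cells 0.0489, 0.0569, 0.118, 0.716 and 35.4. The ratio of -1.18 log2 units, beside 61.7% of measured genes past 2-fold, became 1.57 without inner cell 7 and -3.02 without outer cell 8, so its sign rests on 2 cells. These 2 cells were also the highest for WWTR1, at 17.5 (inner) and 6.84 (outer), while both held 0 reads of AMOT and SAV1.

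In the middle blastocyst (letter B) none of the 4 genes reached a mean of 5 RPKM on either side, beside 61% of measured genes past 2-fold. Outer cells were at most 0.548 RPKM for YAP1, 0.454 for WWTR1, 1.24 for AMOT and 0.247 for SAV1. Inner cells were at most 1.71, 0.745, 0.0124 and 1.18. GATA3, a trophectoderm gene and YAP1 target in the mouse, had a mean of 258 RPKM (SD 265) in these outer cells, and of 29.3 (19.9) in the inner cells beside them.

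**Figure D2:**
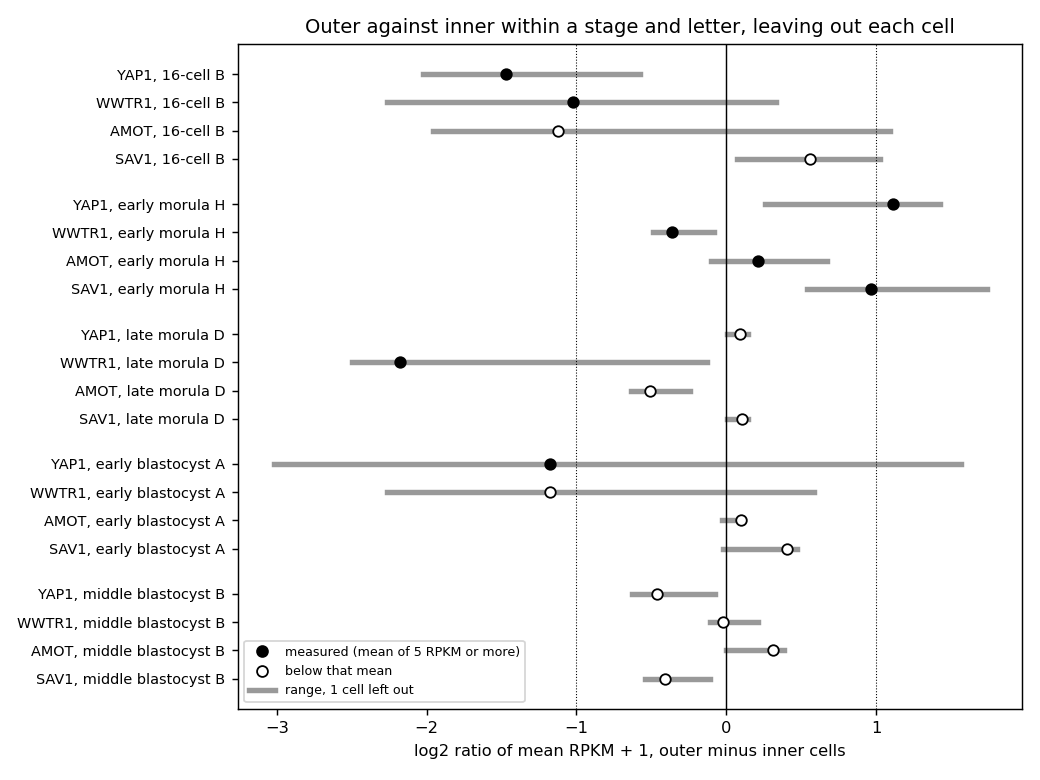
Log2 ratio of mean RPKM + 1 in outer against inner cells within a stage and letter, for each of the 4 genes, with the range of the ratio when 1 cell is left out at a time; filled points mark measured genes and dotted lines mark 2-fold. Among the filled points, the ranges of WWTR1 at the 16-cell stage, AMOT in the early morula and YAP1 in the early blastocyst cross 0, and YAP1 in the early morula reaches down to 0.26.

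The second comparison follows the genes from stage to stage within 1 position and letter. The groups of a step can differ in lineage as well, as the clusters described further below show. In letter G, 7 late cells were epiblast-like and 8 fell in an unnamed cluster, while 8 of 9 hatched cells were trophectoderm-like. In letter H the 4 late cells fell in another unnamed cluster and all 9 hatched cells were epiblast-like. Stage and lineage cannot be told apart in such steps. Inner cells of letter H gave the longest such series, with the early morula and all blastocyst stages. From the early morula to the early blastocyst, 3 of 4 members had higher means, beside 21.4% of measured genes 2-fold higher and 62.5% past 2-fold either way. The higher ones made up 34.3% of those past 2-fold. That share was 51.6% with median-of-ratios factors and 48.5% with size factors over genes above 0 in all cells. The 2 early blastocyst cells held 27.8 and 33.3 RPKM of YAP1 and 47.2 and 87.2 of WWTR1, each above all 5 early morula cells, with ratios of 1.12 and 1.71 log2 units; 29.5% of measured genes did not overlap in this comparison. SAV1 stood at 2.87 and 34.3 in these 2 cells, with a ratio of 1.11 that turned to -1.23 without cell 3. AMOT was within 2-fold, at 12.6 and 24.8 against 6.78 to 64.9.

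From the early to the middle blastocyst of letter H, YAP1, AMOT and SAV1 were near absent in the later cells and WWTR1 was not. YAP1 was 0.0331, 0.0523, 0.296 and 1.08 RPKM in the 4 middle blastocyst cells, a ratio of -4.53 log2 units. AMOT was 0 in 3 of them and 0.0732 in the other, a ratio of -4.27, and SAV1 was 0 in 3 and 1.95 in the other, a ratio of -3.72. All 4 middle blastocyst cells lay below both early blastocyst cells for these 3 genes, as did the cells of 18.7% of measured genes in 1 direction or the other, and 63.4% were past 2-fold. WWTR1 stood at 16.8, 44.0, 47.0 and 69.1 and overlapped, with a ratio of -0.59. Without early blastocyst cell 3 the SAV1 ratio was -1.38.

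From the middle to the late blastocyst of letter H the 3 genes were present again. The 4 late cells held 20.4, 34.7, 41.0 and 44.4 RPKM of YAP1 (ratio 4.73) and 6.80, 6.99, 12.7 and 44.5 of AMOT (ratio 4.20), each above all middle blastocyst cells; 12% of measured genes did not overlap and 55.5% were past 2-fold. SAV1 stood at 0.0219, 1.32, 12.0 and 16.1 and overlapped, with a ratio of 2.49. WWTR1, at 9.27, 25.2, 35.4 and 58.0, had a ratio of -0.46. All 4 of these late blastocyst cells have conflicting stage labels, so no value without them can be had.

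From the late to the hatched blastocyst of letter H, AMOT was near absent in the later cells. None of the 9 hatched cells exceeded 0.178 RPKM of AMOT (median 0.0239, lowest 0), and all lay below all 4 late cells, with a ratio of -4.18 log2 units; 3.16% of measured genes did not overlap and 40.9% were past 2-fold. The hatched cell with the most AMOT had 21 reads. WWTR1 had a ratio of -1.65 (lowest 0, median 10.1, highest 31.0) and SAV1 one of 1.66 (lowest 7.99, median 21.9, highest 48.3), both with overlap. YAP1 ranged from 1.399 to 63.3 around a median of 23.2 and was within 2-fold, at -0.41.

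Inner cells of letter G ran from the early to the hatched blastocyst as well. From the early to the middle blastocyst WWTR1 was the member that was lower, with 58.6, 91.7 and 95.5 RPKM in the early cells against 0.0128, 1.80, 2.88 and 19.5, without overlap and with a ratio of -3.55 log2 units; 11% of measured genes did not overlap and 57.3% were past 2-fold. YAP1 stood at 16.3, 32.3 and 46.7 and then at 8.34, 11.7, 23.3 and 35.6 (ratio -0.66). AMOT stood at 0.0407, 0.233 and 35.1 and then at 1.14, 5.55, 6.72 and 31.8 (ratio -0.06). The AMOT and SAV1 ratios rest on early blastocyst cell 13, and without it they were 3.44 and 3.73.

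From the middle to the late blastocyst of letter G, YAP1 was higher by 1.45 log2 units, beside 52.9% of measured genes past 2-fold, but by 0.79 without the 5 late cells of conflicting labels. The 15 late cells ranged from 0.524 to 199 RPKM of YAP1 with a median of 34.5, and 14 of 15 stood at 1 RPKM or more. WWTR1 (lowest 0, median 4.32, highest 58.2), AMOT (0, 0.0233 and 90.9) and SAV1 (0, 0.132 and 52.9) were each present in only some of the late cells, 8, 5 and 7 of 15 at 1 RPKM or more. Hatched cells of letter G held YAP1 at 58.0 to 173 RPKM (median 115), WWTR1 at 0.723 to 42.5 (27.1), AMOT at 2.26 to 75.5 (6.68) and SAV1 at 0.0226 to 56.0 (9.49). Against the late cells the ratios were 1.01 for YAP1 and 1.05 for WWTR1, beside 42.8% of measured genes past 2-fold, and 1.68 and 1.76 without the cells of conflicting labels. Both are at the edge of a call: with 1 cell left out at a time the YAP1 ratio was under 2-fold in 13 of 24 cases (lowest 0.92) and the WWTR1 ratio in 12 of 24 (lowest 0.90). With size factors from the median of ratios in place of the deposited scale, they turned to -0.84 and -1.35, where the median of all measured genes stood at -1.21.

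Letter B allowed the 16-cell stage to be set beside the middle blastocyst. All 4 inner middle blastocyst cells lay below both inner 16-cell cells for YAP1 (ratio -3.20 log2 units) and WWTR1 (-3.77), beside 43.9% of measured genes without overlap and 72.1% past 2-fold. In outer cells WWTR1 had a ratio of -2.77 with overlap, beside 24.7% of measured genes without overlap and 69.3% of measured genes past 2-fold, and the other 3 members were not measured.

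The letters G and H were compared within a stage after the data had been seen. In the middle blastocyst the 4 cells of letter H lay below the 4 of letter G for YAP1 (ratio -3.93 log2 units) and AMOT (-3.60), and SAV1 was lower with overlap (-3.64), while WWTR1 was higher by 2.68; 10.9% of measured genes did not overlap and 59.8% were past 2-fold. The 4 cells of letter G held GATA4, a hypoblast gene, at 122 RPKM (SD 18.0) and NANOG, an epiblast gene, at 1.41 (1.55). The 4 of letter H had GATA4 listed at 0 in every cell and NANOG at 75.1 (68.3). In the hatched blastocyst, 9 cells of letter H lay below 9 of letter G for AMOT (-4.13, without overlap, beside 2.29% of measured genes), with YAP1 at -2.07, WWTR1 at -1.20 and SAV1 at 0.27, beside 45.1% of measured genes past 2-fold. In the late blastocyst WWTR1 was higher in letter H by 1.501, beside 49.6% of measured genes past 2-fold, but stood at -0.94 with median-of-ratios factors, and the other 3 members were within 2-fold.

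Between letters G or H and letters A or B at the same stage, the measured members were all higher in G or H, by 1.93 to 5.24 log2 units. Apart from YAP1 in the early blastocyst, at 7.27 RPKM in letter A, each was measured only through its level in G or H. The filter thus fixed the direction of the others. For H against B in the middle blastocyst only WWTR1 was measured. There YAP1 (-0.22), AMOT (0.02) and SAV1 (0.09) had means below 5 RPKM in both letters. For G against A in the early blastocyst, AMOT (3.65) and SAV1 (4.04) rest on early blastocyst cell 13 of letter G and stood at 0.16 and 0.47 without it, while YAP1 (1.99) became 4.73 without inner cell 7 of letter A. With median-of-ratios factors YAP1 in H against A stood at 0.76, under 2-fold. Past 2-fold in either direction were 74.6% of measured genes for G against A and 78.2% for H against A in the early blastocyst, and 82.1% for G against B and 79.5% for H against B in the middle one. Those higher in G or H made up 44.4%, 41.8%, 55.1% and 50.6% of measured genes, or 59.5%, 53.4%, 67.1% and 63.7% of those past 2-fold. With median-of-ratios factors the latter shares were 31.1%, 25%, 39.3% and 37.5%. With size factors over genes above 0 in all cells they were 52.6%, 50.6%, 56.3% and 54.2%, so the balance of directions depends on the scaling. Most genes thus differ between these letters, and nothing particular to the 4 genes can be read from their difference.

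YAP1 and WWTR1 encode paralogous coactivators, and single cells often held much more RNA of one than of the other. No other pair of genes was counted in this way, so nothing particular to this pair can be read from the gaps. Of 73 cells with either gene at 1 RPKM or more, YAP1 was the higher of the pair in 45. YAP1 was over 10-fold higher in 17 of them and WWTR1 in 10. WWTR1 was higher in 5 of 5 early blastocyst inner cells of letters G and H, and over 10-fold higher in 4 of 4 middle blastocyst cells of letter H. YAP1 was higher in 14 of 15 late blastocyst cells of letter G, over 10-fold in 7, and in 9 of 9 hatched cells of letter G. Late blastocyst cell 23 of letter G ran against its group, with 0.524 RPKM of YAP1 and 22.3 of WWTR1, as did hatched cell 11 of letter H, with 1.399 and 31.0.

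**Figure D3:**
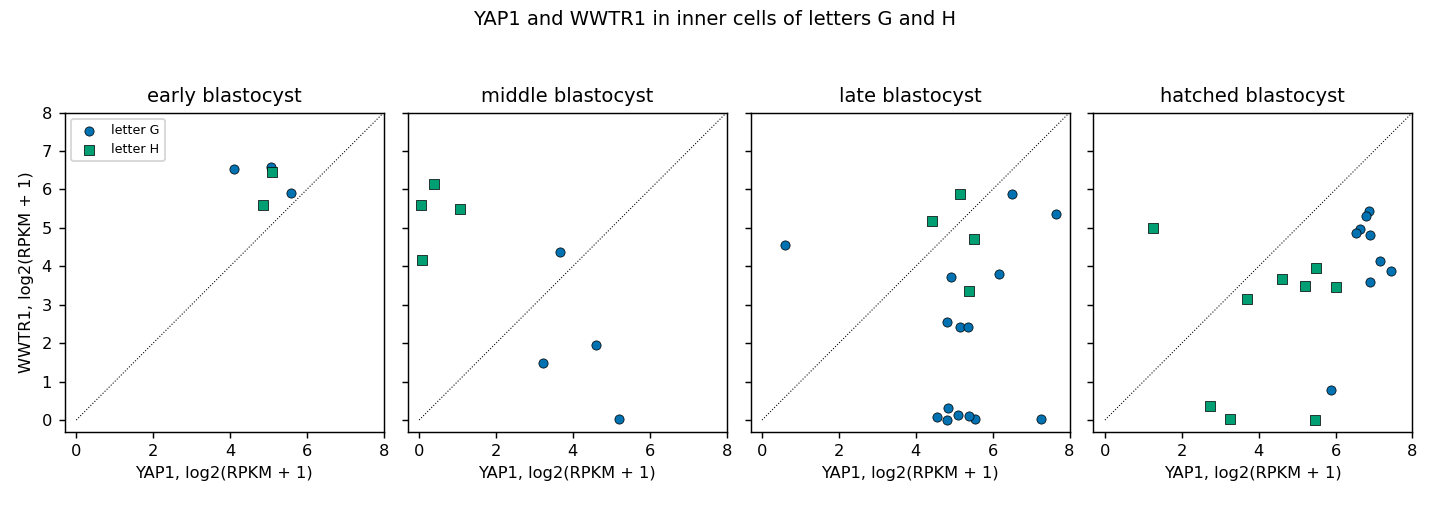
WWTR1 against YAP1, both as log2(RPKM + 1), in inner cells of letters G and H at the 4 blastocyst stages; each point is a cell and the dotted line marks equal levels. All 5 early blastocyst cells lie above the line, the 4 middle blastocyst cells of letter H lie at the left edge with WWTR1 of 16.8 to 69.1 RPKM, and all 9 hatched cells of letter G lie below the line.

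Late and hatched cells are all labelled inner, but marker genes split them. The 70 blastocyst cells were clustered on their most variable genes, without the Hippo and pathway genes, and 5 clusters were taken. A cluster of 8 hatched cells of letter G had 9 of 13 trophectoderm markers above the other cells and is called trophectoderm-like; GATA2 and GATA3 stood at 501 RPKM (SD 193) and 409 (179) there. A cluster of 7 late cells of letter G and 9 hatched cells of letter H had 9 of 12 epiblast markers above the rest and is called epiblast-like, with NANOG at 574 (306) and SOX2 at 47.8 (42.6). Another cluster, of 8 late cells and 1 hatched cell of letter G, carried 8 trophectoderm and 10 hypoblast markers and stays unnamed, as do the cluster of 17 cells that holds the late cells of letter H and the cluster made up of the 20 blastocyst cells with letter A or B. Since the trophectoderm-like cluster is all of letter G, the lineage and the letter cannot be told apart in it.

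AMOT parted the epiblast-like from the trophectoderm-like cells. It was below 1 RPKM in all 16 epiblast-like cells, which allows a share of up to 18.8%, and their highest value was 0.178. That held for the 7 late cells of letter G (highest 0.0376) and for the 9 hatched cells of letter H (highest 0.178). All 8 trophectoderm-like cells held AMOT, from 2.26 to 75.5 RPKM (median 6.51), and the 2 sets of cells did not overlap, beside 1.91% of measured genes; AMOT and the pathway lists were kept out of the clustering and the other genes were not. The same 5 clusters were found with no genes left out, with the lineage markers left out and with 500, 2000 or 7000 variable genes. With 200, the epiblast-like cells were the same 16, but the trophectoderm-like cluster took in 5 late cells of letter G, and AMOT stood at 1 RPKM or more in 10 of its 13 cells, with the lowest at 0 and thus with overlap. Within letter G of the late blastocyst, the 8 cells of the unnamed cluster ranged from 0 to 90.9 RPKM, with 5 of 8 at 1 RPKM or more. Low AMOT was not particular to epiblast-like cells. It averaged 0.0905 RPKM (SD 0.222) in outer early blastocyst cells of letter A, with 0 of 6 at 1 RPKM or more. In outer middle blastocyst cells of letter B it averaged 0.249 (0.553), with 1 of 5. Both outer groups carry other letters, and lineage and letter cannot be told apart.

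YAP1 had its highest cluster mean in the trophectoderm-like cells, at 113 RPKM (SD 34.2), lowest 58.0 and highest 173. Epiblast-like cells stood at 27.6 (17.8) and 0.524 to 63.3. High YAP1 was not particular to the trophectoderm-like cells. The unnamed late cluster averaged 83.4 (61.9) and held the highest cell, at 198.5, and its 1 hatched cell, also of letter G, stood at 118. WWTR1 averaged 24.7 (13.7) in trophectoderm-like and 8.38 (8.81) in epiblast-like cells. SAV1 did not follow this order, at 18.2 (20.0) in trophectoderm-like and 21.7 (17.9) in epiblast-like cells. Taken as 6 clusters, the unnamed late cluster parted into 4 hypoblast-like cells, with 12 of 13 hypoblast markers up, and 5 further trophectoderm-like cells, which are the 5 letter G cells of conflicting labels. The hypoblast-like cells held AMOT at 11.1 to 90.9 RPKM (median 31.4, 4 of 4 cells at 1 RPKM or more) and YAP1 at 65.5 (39.2). The 5 late trophectoderm-like cells held YAP1 at 97.7 (77.0), while AMOT was at 1 RPKM or more in 2 of 5 of them, so AMOT was not found in every cell of that name.

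**Figure D4:**
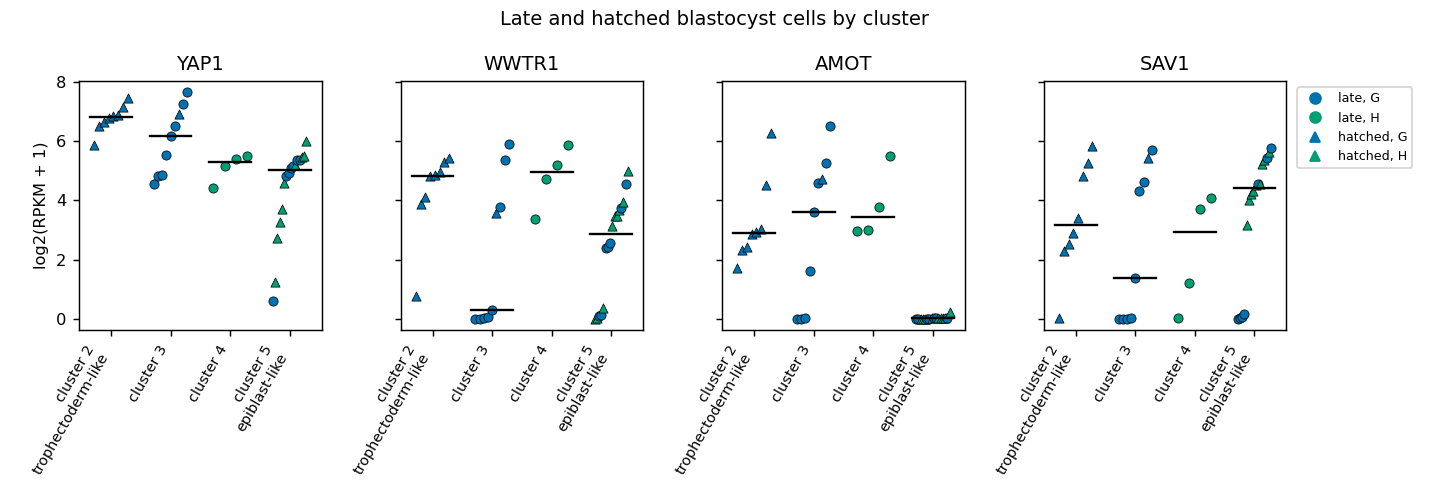
Level of the 4 genes, as log2(RPKM + 1), in late and hatched blastocyst cells by cluster, with a bar at the median; shapes give the stage and colours the letter. AMOT lies between 0 and 0.178 RPKM in all 16 epiblast-like cells and between 2.26 and 75.5 in the 8 trophectoderm-like cells.

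The rest of the pathway was read from 6 lists with 58 genes, of which 49 were in the table; AMOTL2, WTIP, TEAD3, CTGF, AXL, PARD3, PARD6B, SCRIB and ROCK2 were not analysed here. At the 16-cell stage 20 of them were measured, and outer means were 2-fold higher for 2 and lower for 5, against 24% and 20.6% of all measured genes. The early morula had 3 higher and 2 lower of 28 (background 16.1% and 9.12%), and the late morula 6 and 9 of 22 (31.2% and 26.9%). Of all early morula genes past 2-fold, 63.9% were higher in outer cells as deposited. That share was 34.5% with median-of-ratios factors and 73.9% with size factors over genes above 0 in all cells. The early blastocyst had 10 higher and 8 lower of 27 (29% and 32.7%), and the middle blastocyst 9 and 3 of 20 (36.3% and 24.7%). The median ratio of these genes was -0.23, 0.04, -0.71, 0.39 and 0.81 log2 units, beside -0.00028, 0.10, 0.11, -0.11 and 0.33 over all measured genes. Of the mouse targets of YAP1 and TAZ, the early blastocyst held GATA3 at 188 RPKM (SD 163) in its outer cells against 10.9 (23.8) in its inner cells. CDX2 in the middle blastocyst, with 98.1% of its outer level in 1 cell, stood at 17.4 (37.9) in outer against 0.121 (0.0940) in inner cells. Of the targets, 2 of 2 measured had higher means in outer cells in the middle blastocyst, 1 of 2 in the early blastocyst and 1 of 2 in the late morula, where GATA3 was the one lower in outer cells (0.146, SD 0.233, against 23.1, SD 40.2). CDX2 is counted as higher in the middle blastocyst and the late morula. Without the highest outer cell its ratios were 0.32 and -0.11, so these counts claim no direction for it. In the late morula 80.7% of the inner GATA3 level was in 1 cell, and the ratio was -2.52 without it.

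A single cell carried many of these calls: without the highest cell of the higher side, 16 of the 28 calls picked as furthest from 0 were under 2-fold. These were RASSF1 (at both stages), MPP5, LLGL1 and LLGL2 at the 16-cell stage, PRKCI in the early morula, WWC1, TAOK3, CDX2 and PARD6A in the late morula, STK3, TAOK2, VGLL1 and PARD6A in the early and CDX2 and PRKCZ in the middle blastocyst, whose values below are levels with no direction claimed.

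Among the kinases, STK3, which SAV1 binds, was at 0.0116 RPKM (SD 0.0284) in outer cells of the early blastocyst and at 5.86 (13.1) in its inner cells. Upstream regulators past 2-fold included PTPN14, a phosphatase that binds YAP1, at 6.62 (2.84) in outer and 0.532 (0.750) in inner early morula cells. Every outer cell lay above every inner one, beside 2.55% of measured genes without overlap. FRMD6, a FERM-domain activator of the kinases, stood at 8.22 (8.12) and 1.51 (3.35) there. TAOK3, a kinase that acts on STK3 and STK4, averaged 7.27 (16.2) in outer late morula cells, 1 cell holding 99.7% of it, against 0.0157 (0.0242) in inner cells. In the early blastocyst it stood at 10.9 (23.5) against 0.00298 (0.00666), with 2 of 6 outer cells at 1 RPKM or more. AMOTL1, a paralog of AMOT, was 8.40 (15.1) in outer and 0.00262 (0.00525) in inner middle blastocyst cells without overlap, beside 4.16% of measured genes. Of its outer level 83.1% was in 1 cell, and 2 of 5 outer cells stood at 1 RPKM or more. RASSF1, which binds STK3 and STK4, stood at 35.4 (28.8) in outer and 110 (106) in inner 16-cell cells and at 23.2 (40.8) and 64.9 (77.6) in the middle blastocyst. WWC1 stood at 0.134 (0.170) in outer and 8.22 (17.8) in inner late morula cells.

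TEAD4, the TEAD factor that acts with YAP1 in the mouse trophectoderm, was not restricted like the 4 members and averaged between 13.7 RPKM (SD 16.0) in early blastocyst inner cells of letter H and 399.6 (165) in outer early blastocyst cells. It stood at 204 (123) in outer and 345 (172) in inner late morula cells, where YAP1 and AMOT were near 0. TEAD2 was lower in outer early morula cells (3.03, SD 4.34, against 14.1, SD 14.8). VGLL1, a TEAD partner, averaged 525.96 (531) in hatched cells of letter G and 0.0572 (0.108) in those of letter H, and in the early blastocyst 11.9 (29.1) in outer and 0.0735 (0.0827) in inner cells of letter A. Of the classical target genes, CYR61 reached at most 15.2 (18.6), in early blastocyst cells of letter G, and ANKRD1 at most 32.6 (62.9), in middle blastocyst cells of letter G.

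Of the polarity genes, LLGL1, a basolateral polarity protein, was lower in outer cells of the late morula (0.225 RPKM, SD 0.193, against 26.7, SD 29.7, without overlap, beside 3.37% of measured genes) and the middle blastocyst (6.62, SD 12.9, against 38.3, SD 18.5), and at the 16-cell stage stood at 9.54 (3.72) in outer and 3.98 (2.39) in inner cells. LLGL2 stood at 4.08 (3.11) in outer and 21.4 (19.7) in inner 16-cell cells, without overlap, as did 29.4% of measured genes. Of its inner level 82.5% was in 1 of 2 cells. MPP5 stood at 2.16 (1.497) and 6.70 (8.62) in these groups. PRKCI, an apical kinase of the PAR complex, was 11.2 (6.69) in outer and 4.66 (4.79) in inner early morula cells, and DLG1 3.28 (2.63) and 9.92 (8.37). PRKCZ stood at 8.15 (17.9) in outer and 24.1 (33.8) in inner middle blastocyst cells. PARD6A was 29.4 (65.4) in outer late morula cells and listed at 0 in the inner ones, and was listed at 0 in outer early blastocyst cells and 17.5 (37.7) in inner ones. TAOK2, another kinase upstream of STK3 and STK4, was 0.0189 (0.0463) in outer cells of the early blastocyst against 10.9 (24.4) in its inner cells.

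**Figure D5:**
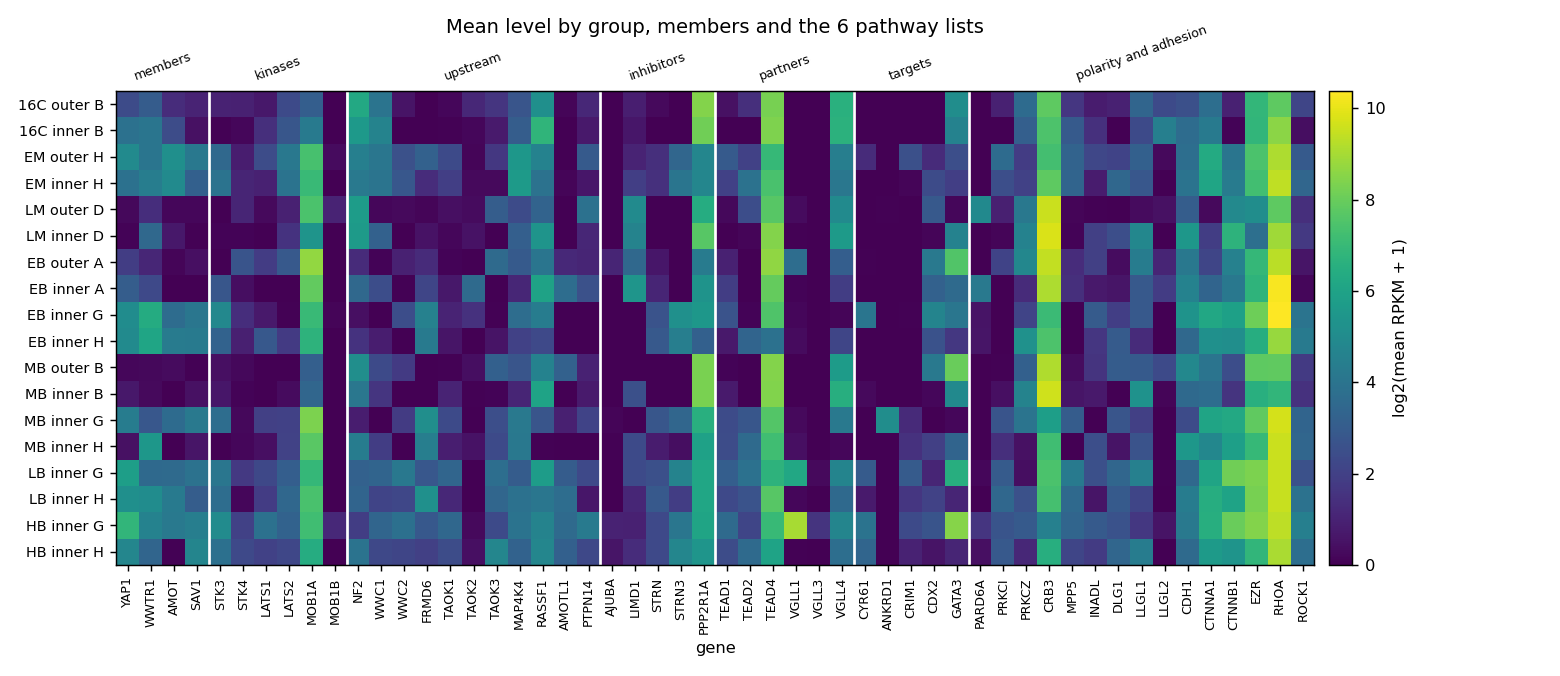
Mean level of the 4 genes and of 48 pathway genes, as log2(mean RPKM + 1), in the 18 groups of stage, position and letter. TEAD4 and RHOA are high in nearly all groups, while YAP1, AMOT and SAV1 are dark in the late morula (D), and all 4 members are in the middle blastocyst of letter B; WWTR1 averages 10.5 RPKM in inner late morula cells.

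Over the 18 group means, the genes most like each member were found by Pearson's r of log2(mean RPKM + 1) among 7871 genes. The values describe these groups, which share letters and libraries. YAP1 was most like FBXO21 (r = 0.92), POGZ (0.91) and WDR43 (0.91), and WWTR1 most like NR2C2 (0.87), SREK1IP1 (0.86) and TFRC (0.85). For AMOT, UBE2E1 (0.94) and ASPH (0.88) were among the most alike, and SAV1 was most like GOLT1B (0.98), EAPP (0.98) and RALGAPB (0.97). Among the members themselves YAP1 and SAV1 were most alike (0.87), then YAP1 and AMOT (0.78), AMOT and SAV1 (0.75), WWTR1 and AMOT (0.63), YAP1 and WWTR1 (0.59) and WWTR1 and SAV1 (0.58). An r above 0.5 is common on these groups, with 33.8% of the genes for YAP1, 23.8% for WWTR1, 26.8% for AMOT and 36.9% for SAV1. Over the 95 cells the r between members was lower, from 0.20 for WWTR1 and SAV1 to 0.53 for YAP1 and SAV1.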

How the data were processed

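The authors deposited a table of 16049 genes in 95 cells, whose unit it does not name. The deposited values were read as RPKM from the values themselves: they are not whole, and low values are multiples of 1 step per gene and cell (tolerance 0.05 reads), with 100% of the 4 members' values and 79.6% of all genes giving whole reads. Per the submitters' processing notes, FastQC, TopHat2 2.1.0, HTSeq and DESeq2 were used, with roles not given; the genome build is not given in the sources used here. The members and gene lists were chosen with earlier results of these data known. The comparisons of letters and the rule for naming clusters (at least 50% of the markers of exactly 1 lineage higher by 1 log2 unit or more) were added after the data were seen.

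Differences are log2 ratios of mean RPKM + 1 between groups, a gene being measured where 1 or both means reached 5 RPKM and called at 2-fold. No test was made, since no embryo is named. Named genes are the members, in each outer against inner comparison the 3 pathway genes furthest up and down among those called, the 3 genes most like each member among genes with a group mean of 5 RPKM or more in at least 3 groups, and 6 lineage genes; other pathway genes with values (TEAD4, VGLL1 in hatched cells, CYR61, ANKRD1) were chosen after their values were seen. Of the genes this rule names, 2 are not reported here. The 70 blastocyst cells were clustered by Ward's method on 10 principal components of log2(RPKM + 1) of the 1000 most variable of 7960 genes with at least 10 RPKM in 5 cells. The recovery of reads and the ratio were tested on simulated data. Of the symbols, 14282 are in the RefSeq gene table, among them the 4 members. Python 3.11.15, numpy 2.4.6, pandas 2.3.3, scipy 1.17.1, scikit-learn 1.9.0 and matplotlib 3.10.9 were used. Alternatives were other pseudocounts, 2 sets of size factors, other averages, leaving out cells, other gene choices for the clusters and other handling of the 9 cells of conflicting labels.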

Additional observations from a re-analysis of the deposited data

Results flagged for a closer look

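In 52 sets of values, the 4 genes in each of 13 groups of 4 to 10 cells, a gap test for a lone far cell marked 15 (28.8%). Chance marks about 1 set in 20 where values are normal, which sets of zeros with a few high cells are not. For YAP1 the far cells were outer early morula cell 2 of letter H at 86.1 RPKM, outer early blastocyst cell 8 of letter A at 15.9, inner early blastocyst cell 7 of letter A at 35.4 and outer middle blastocyst cell 1 of letter B at 0.548. For WWTR1 they were the same outer early blastocyst cell at 6.84, inner middle blastocyst cell 5 of letter B at 0.745 and, as a low value, hatched cell 2 of letter G at 0.723. For AMOT they were outer early blastocyst cell 6 of letter A at 0.543, outer middle blastocyst cell 1 of letter B at 1.24, middle blastocyst cell 3 of letter H at 0.0732 and hatched cell 5 of letter H at 0.178. For SAV1 they were outer late morula cell 1 of letter D at 0.414, outer early blastocyst cell 10 of letter A at 2.04, outer middle blastocyst cell 7 of letter B at 0.247 and middle blastocyst cell 3 of letter H at 1.95. Most of these groups hold values at or near 0 in all other cells.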

How the results depend on the processing

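A larger pseudocount must bring a ratio of means toward 0 and a smaller one must enlarge it, and neither can change its sign. With a pseudocount of 10 in place of 1, ratios moved toward 0: WWTR1 in outer (-0.75) and YAP1 and WWTR1 in inner (-1.15 and -1.32) 16-cell to middle blastocyst cells, YAP1, AMOT and SAV1 from early to middle (-1.97, -1.52 and -1.45) and middle to late (2.12, 1.47 and 0.73) blastocyst of letter H, AMOT from late to hatched (-1.47), YAP1, AMOT and SAV1 in middle blastocyst H against G (-1.52, -1.09 and -1.39) and AMOT in hatched H against G (-1.43). With 0.1 the same ratios grew, to -4.67, -4.31 and -5.69 for letter B, -6.04 (YAP1) and -7.31 (AMOT) for early to middle, 6.24 and 7.24 for middle to late, -7.05 for AMOT late to hatched, and -5.41, -6.59 and, hatched, -7.00 for H against G. The median-of-ratios size factors were a variant of the usual form. A value of 0 counted as 1 RPKM in each gene's geometric mean, and each cell's median ran over its genes above 0. These factors put the median of all measured genes between -2.25 and 2.07 log2 units over the 21 comparisons, against -0.75 to 1.54 as deposited. They reversed YAP1 (-0.84) and WWTR1 (-1.35) from late to hatched letter G and WWTR1 in late H against G (-0.94), and moved YAP1 and WWTR1 in letter B (-2.23 and -2.81), YAP1 and AMOT from early to middle (-3.92 and -3.72) and middle to late (3.56 and 3.11) of letter H, AMOT from late to hatched (-3.10) and YAP1 in late H against G (-2.69). Size factors over genes above 0 in all cells and depth-weighted means moved none of 84 ratios beyond the spread between cells, and means of log2 values moved 2 of 84. Called ratios that were under 2-fold with median-of-ratios factors were also WWTR1 at the 16-cell stage (-0.74), YAP1 in the early morula (0.70) and WWTR1 in hatched H against G (-0.66); with factors over genes above 0 in all cells these were YAP1 (0.83) and WWTR1 (0.70) from late to hatched letter G and WWTR1 in late H against G (0.97). Without a filter on low values, or with one at a mean of 1 RPKM, 11 pathway genes in place of 5 were 2-fold apart in the early morula. With 1 cell left out at a time, outer against inner ratios ran from -2.27 to 0.33 for WWTR1 at the 16-cell stage, from -2.4997 to -0.13 for WWTR1 in the late morula and from -3.02 to 1.57 for YAP1 in the early blastocyst. Between stages of letter B they ran from -3.30 to -1.53 for outer WWTR1, from -3.75 to -2.30 for inner YAP1 and from -4.46 to -2.42 for inner WWTR1. For early to middle blastocyst of letter G the ranges were -5.02 to -3.19 (WWTR1), -1.23 to 3.44 (AMOT) and -1.20 to 3.73 (SAV1). In letter H they were -1.23 to 1.96 for SAV1 from early morula to early blastocyst, -4.67 to -3.74 for AMOT and -4.57 to -1.38 for SAV1 from early to middle, 3.27 to 4.46 for AMOT from middle to late and -4.44 to -3.25 for AMOT from late to hatched blastocyst. For middle blastocyst H against G they were 2.32 to 4.14 (WWTR1) and -3.95 to -2.43 (AMOT). Apart from what the alternatives' own construction shows, the cause was not tested. With the 5 letter G cells of conflicting labels counted as hatched, late to hatched ratios were 1.60 for YAP1, 1.68 for WWTR1, -0.11 for AMOT and -0.35 for SAV1; the 4 letter H cells make up their whole group and could not be left out. No paired analysis was possible because cell numbers in the titles name single cells and no result comes from a test. With 2 to 15 cells a group and no named embryo, spread between embryos is unknown.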
